A study of Homo sapiens with 12 samples.

Results

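The genes followed here were the 10 that carry a cell from G1 into S phase and are named together as the G1 cyclins, their kinases and SKP2: CCND1, CCND3, CCNE1, CCNE2, CDK2, CDK4, CDK6, SKP2, CDKN1B and CDC25A. They were taken by name, though earlier results of these data were known when they were chosen. All 10 were found by Ensembl identifier among the 60669 genes of the count table and the 18720 with enough counts to be tested. Gene expression was measured by sequencing polyA RNA from 6 established cell lines, which the study names as human ovarian cancer lines. The origin of the lines was not tested here. Each was sampled after 6 h with 8 µM quinacrine (QC), an old antimalarial drug, or with vehicle. The sensitive lines were HeyA8, SK-OV-3 and OV2008, and each has a resistant derivative, in that order HeyA8-MDR, SK-OV-3-TR and the C13 line. According to the study's methods HeyA8-MDR is resistant to carboplatin, SK-OV-3-TR to taxol and C13 to cisplatin. Each of the 4 groups (sensitive or resistant, vehicle or QC) thus held 3 libraries, 1 from each line, so that every difference within a line rested on 1 vehicle and 1 QC library and the lines served as the replicates.

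In G1 the D cyclins bind CDK4 and CDK6, and the E cyclins bind CDK2. These kinases phosphorylate the RB protein and so release E2F transcription factors, which switch on the genes of S phase. CDC25A removes inhibitory phosphates from CDK2, CDKN1B encodes the CDK inhibitor p27, and SKP2 is the F-box protein through which an SCF ubiquitin ligase, with its partner CKS1B, marks p27 for destruction.

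Libraries held between 17782556 and 30585059 counts, and the members between 41 counts (CCNE2 in SK-OV-3 with QC) and 23985. One library stood apart: among genes at least 8-fold different between HeyA8 and HeyA8-MDR with vehicle, the HeyA8 library treated with QC had, at the median gene, covered 39.6% of the distance to HeyA8-MDR for the 285 genes higher there and 52.7% for the 218 lower, against at most 31.2% (between a line and its partner) in any other QC library. In that library 6 of the 10 members had moved towards the HeyA8-MDR level, beside 71.7% of all tested genes. Both directions were taken from the same HeyA8 vehicle library, so its error enters both. No such share was computed for the other lines. Of the epithelial markers, KRT7, KRT8, KRT18, PAX8 and WT1 were counted in all 12 libraries. WT1 reached at most 4.79 CPM, the count scaled by TMM to the size of its library. In OV2008 and C13, PAX8 reached only 24.8 CPM and KRT7 only 26.9 CPM. In HeyA8 and HeyA8-MDR, EPCAM reached at most 2.92 CPM and MUC16 at most 0.296 CPM. MUC16 was at 0 in 2 libraries. The leukocyte markers PTPRC, CD3E and CD68 and the fibroblast markers DCN and LUM reached at most 0.681 CPM, and the endothelial VWF 5.29 CPM. No value was obtained for the endothelial marker PECAM1.

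The promoters of the 3 members on which the comparisons turn are shown so that the start of each gene can be read beside its values. RefSeq (GRCh38.p14) gave a promoter for 7 of the 10 members, and the 250 bases before the start are printed 5′ to 3′ in the direction of the gene. Capitals mark a match to an E2F word (TTTGGCGC, TTTGCCGC, TTTCGCGC or TTTCCCGC, on either strand).
SKP2, chr5:36151861-36152110, plus strand: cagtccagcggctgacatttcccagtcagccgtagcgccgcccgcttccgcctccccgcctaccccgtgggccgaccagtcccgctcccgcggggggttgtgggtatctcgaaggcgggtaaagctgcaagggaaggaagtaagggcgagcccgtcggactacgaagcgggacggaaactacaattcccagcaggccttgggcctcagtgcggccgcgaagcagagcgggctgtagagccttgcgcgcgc
CCNE1, chr19:29811741-29811990, plus strand: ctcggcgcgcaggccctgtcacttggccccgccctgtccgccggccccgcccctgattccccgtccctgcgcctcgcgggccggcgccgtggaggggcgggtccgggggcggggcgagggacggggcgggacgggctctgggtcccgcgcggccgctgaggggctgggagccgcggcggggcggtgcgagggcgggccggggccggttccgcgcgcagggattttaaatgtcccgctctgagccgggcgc
CDC25A, chr3:48188418-48188667, minus strand: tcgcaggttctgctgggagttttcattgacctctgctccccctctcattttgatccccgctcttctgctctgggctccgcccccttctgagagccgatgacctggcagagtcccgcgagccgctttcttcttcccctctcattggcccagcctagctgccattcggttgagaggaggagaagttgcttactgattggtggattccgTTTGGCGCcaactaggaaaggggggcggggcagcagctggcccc
CDC25A held 1 E2F word, 44 bases before its start, and none was found in the windows of the other 6 members; 2.79% of 35116 promoter windows of this length held one. The word GGGCGG, on either strand, occurred 7 times in the CCNE1 window, 2 times in that of CDC25A and 1 time in that of SKP2, and 42.6% of all windows held it. The word CACGTG occurred in the CDK4 window only, 3 times, against 6.34% of windows. These are matches of letters and were not tested as binding sites.

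Per kilobase of canonical transcript, CCND1 was by far the most abundant member. Its median over the 6 vehicle libraries was 142 CPM per kilobase, followed by CDK4 at 81.9, CDK2 at 24.0, CDK6 at 15.3, CDKN1B at 13.7 and CCND3 at 12.5. SKP2 (7.56), CCNE1 (6.71), CDC25A (2.79) and CCNE2 (1.83) were the least abundant. On this scale CCND1 made up between 65.9% and 92.5% of D cyclin transcripts in every library, CCNE1 between 64.2% and 88.2% of E cyclin transcripts, and CDK6 between 9.999% and 34.0% of CDK4 and CDK6 together. CDK4 and CCNE2 share 57.8% and 57.1% of their canonical transcripts with other genes, and the strand setting of the counting is not given. Their levels and the shares built on them may thus be off, which was not tested. CCND2, a D cyclin outside the list, supplied 22.4% of D cyclin transcripts in OV2008 with vehicle and had 0 counts in both SK-OV-3 libraries.

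Member levels differed among the line families (a parent and its derivative). With vehicle, 8 of the 10 differed among the 3 families at an unadjusted p under 0.05 in edgeR's quasi-likelihood test, against 40.9% of all tested genes, and 5 of the 10 at an adjusted p under 0.05, against 23.1% of all genes. SKP2 was the clearest of them (adjusted p = 0.00447), followed by CDC25A (0.00848), CCND3 (0.0425), CDK2 (0.0467) and CCND1 (0.0472). Leaving out 1 line left between 1 and 5 adjusted calls. SKP2 passed each time and CDC25A each time but without C13, whereas CCND3 and CDK2 passed only without SK-OV-3-TR and CCND1 in none of these fits. CDK6 and CDKN1B did not pass at either level.

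**Figure D1:**
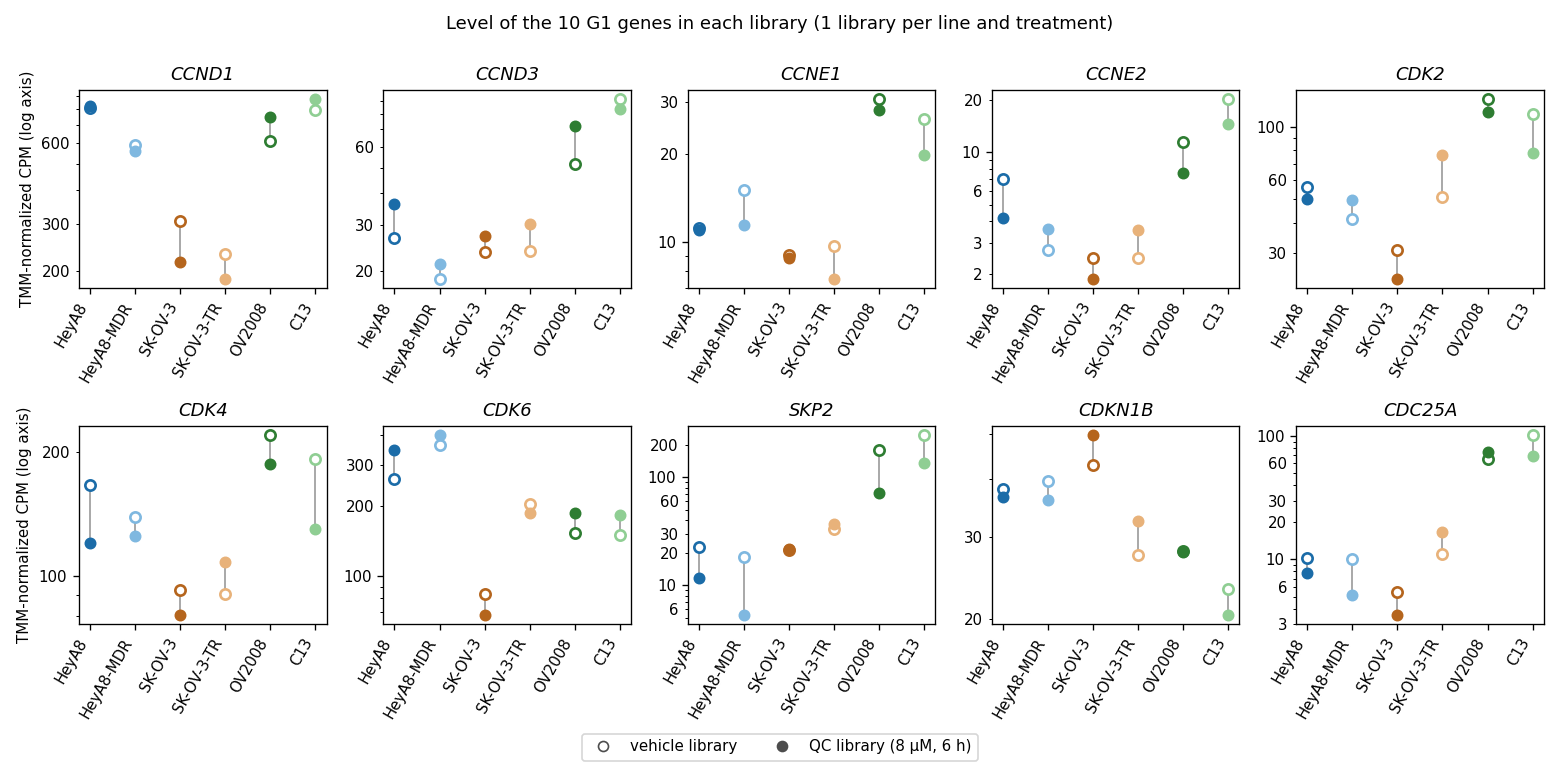
Level of each of the 10 genes as TMM-normalized CPM on a log axis, for the 6 lines in order of family, with 1 point per library. Open circles are vehicle and filled circles QC, joined within a line. SKP2 and CDC25A are highest in OV2008 and C13 under both treatments, and CDKN1B has the narrowest range.

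SKP2 (ENSG00000145604.16, chromosome 5) stood at 22.7 CPM in HeyA8, 18.4 in HeyA8-MDR, 21.3 in SK-OV-3, 33.4 in SK-OV-3-TR, 178 in OV2008 and 245 in C13 with vehicle. OV2008 and C13 were thus apart from the other 4 lines, with a 13.3-fold range over lines. With the spread between a line's vehicle and QC libraries taken into account, C13 and OV2008 overlapped, SK-OV-3 overlapped HeyA8, and HeyA8 overlapped HeyA8-MDR.

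CDC25A (ENSG00000164045.12, chromosome 3) had a still wider range, 18.6-fold. It stood at 10.3 CPM in HeyA8, 10.1 in HeyA8-MDR, 5.40 in SK-OV-3, 11.1 in SK-OV-3-TR, 64.9 in OV2008 and 102 in C13 with vehicle. The same pair of lines was highest, without overlap with the others. At the other end CDKN1B differed only 1.85-fold, between 23.2 CPM in C13 and 42.8 CPM in SK-OV-3.

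With vehicle, the ratio of SKP2 to CDKN1B per kilobase followed SKP2 in its order over lines. On a log2 scale it was 2.04 in OV2008 and 2.78 in C13 with vehicle, and below 0 in the other 4 lines, from -1.73 in HeyA8-MDR up to -0.34 in SK-OV-3-TR. With QC it was 0.74 in OV2008, 2.09 in C13, -2.27 in HeyA8, -3.38 in HeyA8-MDR, -1.82 in SK-OV-3 and -0.44 in SK-OV-3-TR, lower than with vehicle in all 6 lines. In SK-OV-3 and SK-OV-3-TR the lower ratio came with CDKN1B at 1.16 and 1.18 times vehicle, while SKP2 was at 1.02 and 1.11 times. The 2 values the ratio is built from are described below. It was not tested separately, nor set beside ratios of other genes.

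SKP2 was also the member with the largest difference between QC and vehicle. Its level was 22.7 CPM with vehicle and 11.7 with QC in HeyA8, 18.4 and 5.33 in HeyA8-MDR, 178 and 71.6 in OV2008, and 245 and 134 in C13. In SK-OV-3 it was 21.3 and 21.7 CPM, and in SK-OV-3-TR 33.4 and 37 CPM. QC was therefore lower than vehicle in the 4 lines of 2 families, at 0.514, 0.290, 0.402 and 0.546 times the vehicle level, and no lower in the SK-OV-3 pair, at 1.02 and 1.11 times. In bulk RNA, fewer cells expressing a gene and less of its RNA per cell cannot be told apart.

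Over the 6 lines the SKP2 difference was -0.78 ± 0.224 (log2, standard error) in edgeR's quasi-likelihood test, with an unadjusted p of 0.00442 and an adjusted p of 0.175. It was the only member under an unadjusted 0.05, against 15.2% of all tested genes, so the count of members was below the background. No member, and 0 of the 18720 genes, passed an adjusted 0.05 in this fit, where 2840 genes had an unadjusted p under 0.05. DESeq2 called 518 genes at an adjusted 0.05 in the same comparison, with SKP2 among them (adjusted p = 0.0329). Over all alternatives its adjusted p lay between 1.21e-04, without the low-count filter, and 1, without the line term.

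In the sensitive lines the SKP2 difference was -0.76 ± 0.329 (unadjusted p = 0.04, adjusted p = 0.729 in edgeR), and in the resistant lines -0.80 ± 0.335 (unadjusted p = 0.0347, adjusted p = 0.818). In each it was the only member under an unadjusted 0.05, against 6.59% of genes in sensitive and 6.03% in resistant lines, so neither count stands clear of the background. No gene passed an adjusted 0.05 in edgeR in either group, where 1234 and 1128 genes had an unadjusted p under 0.05, and DESeq2 called 31 and 0. No member had an unadjusted p under 0.05 for the resistant minus sensitive difference, in edgeR or DESeq2, against 1.16% of genes in edgeR. For SKP2 this difference was -0.04, with an interval of 2 standard errors from -0.97 to 0.89, which spans differences of nearly 1 in either direction. Its sign turned positive without HeyA8-MDR (0.39), without SK-OV-3 (0.35) and without the line term (0.33). Leaving out HeyA8 or OV2008 took the sensitive value past 0.05, as did leaving out C13, which enters that fit through the shared spread, and leaving out HeyA8-MDR or C13 did so for the resistant value.

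Split by family instead, the SKP2 difference was -1.34 ± 0.226 in HeyA8 and HeyA8-MDR (adjusted p = 0.0531 in edgeR), 0.09 ± 0.211 in SK-OV-3 and SK-OV-3-TR, and -1.09 ± 0.208 in OV2008 and C13 (adjusted p = 0.0305). At an unadjusted p under 0.05 SKP2 was the only member in the HeyA8 and OV2008 families, against 19.7% and 18.9% of genes, and CCND1 (-0.41 ± 0.163) the only one in the SK-OV-3 family, against 4.55%. In the OV2008 family 2.88% of genes passed the adjusted threshold and SKP2 was the only member that did. The test of the difference among families gave SKP2 an unadjusted p of 0.00189 and an adjusted p of 0.168, where 14.0% of genes had an unadjusted p under 0.05 and SKP2 was the only such member. It passed the adjusted threshold in DESeq2 (0.0110), without the low-count filter (8.85e-04), without HeyA8 (0.0307) and without HeyA8-MDR (0.0366), within a range over all alternatives up to 0.565. This split was chosen after the values had been seen.

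In the HeyA8 library that stood apart, SKP2 was at 11.7 CPM. With vehicle it was at 22.7 in HeyA8 and 18.4 in HeyA8-MDR, and with QC at 5.33 in HeyA8-MDR. SKP2 was among the 6 members that had moved towards the HeyA8-MDR vehicle level there. The part of that library in the SKP2 value was not tested. Without HeyA8 and without every other line in turn, the difference over lines lay between -0.97 and -0.62.

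**Figure D2:**
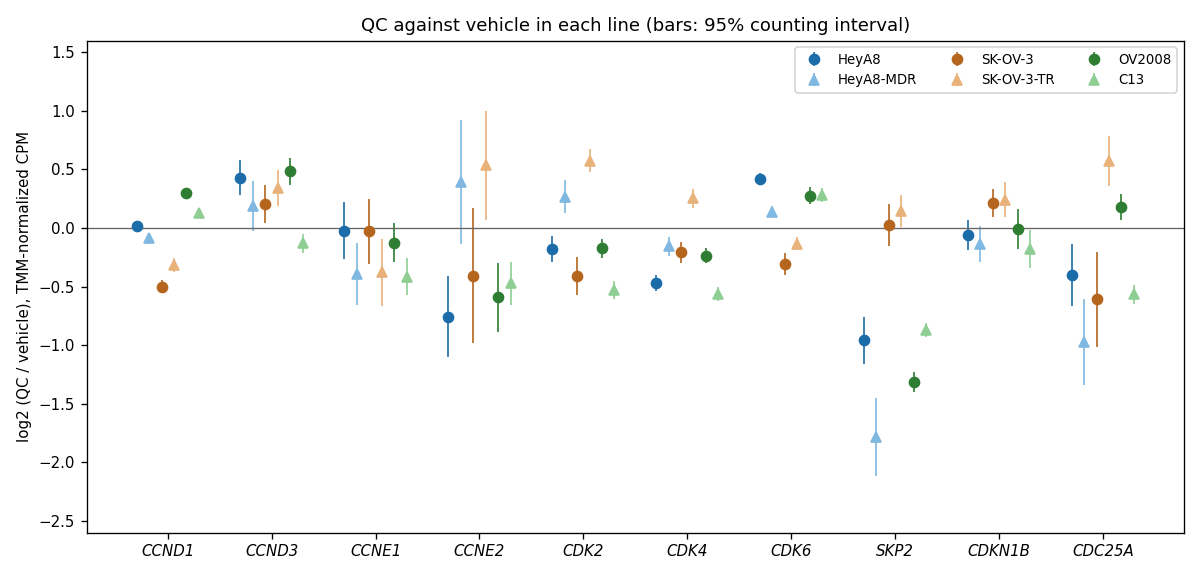
Log2 ratio of QC to vehicle (TMM-normalized CPM) for each of the 10 genes, with 1 point per line, circles for sensitive and triangles for resistant lines. Bars are 95% counting intervals and leave out variation between cultures. SKP2 is well below 0 in 4 lines and near 0 in SK-OV-3 and SK-OV-3-TR, while most other points lie within 1 unit of 0.

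Of the 60 values (10 members in 6 lines), 37 were lower and 23 higher with QC, and 2 differed at least 2-fold, both of them SKP2 (HeyA8-MDR and OV2008). Among all tested genes 17.1% differed at least 2-fold in HeyA8, 16.6% in HeyA8-MDR, 8.26% in SK-OV-3, 9.37% in SK-OV-3-TR, 18.0% in OV2008 and 11.4% in C13. SK-OV-3-TR had 7 of the 10 members higher with QC, and C13 had 2. The median over members was -0.44 in C13 and 0.25 in SK-OV-3-TR, beside medians over all genes of 0 and -0.00466.

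CCNE1 (ENSG00000105173.14, chromosome 19), which encodes cyclin E1, was lower with QC in 6 of 6 lines, as were 5.96% of all genes. It was 11.2 CPM with vehicle and 11.04 with QC in HeyA8, 9.04 and 8.85 in SK-OV-3, and 30.7 and 28.1 in OV2008. In the resistant lines it was 15.01 and 11.4 CPM in HeyA8-MDR, 9.72 and 7.48 in SK-OV-3-TR, and 26.4 and 19.8 in C13. The differences were small in the sensitive lines (0.985, 0.98 and 0.917 times vehicle) and lay close together in the resistant lines (0.762, 0.769 and 0.750 times). As single values these ratios did not overlap between the groups, as was so for 5.22% of all genes.

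The mean log2 ratio of CCNE1 was -0.06 ± 0.0577 in sensitive and -0.39 ± 0.0192 in resistant lines (SD, n = 3 lines each). In edgeR the resistant minus sensitive difference was -0.34 ± 0.289, with an unadjusted p of 0.269. Over the 6 lines CCNE1 was -0.23 ± 0.138 (adjusted p = 0.455). CCNE1 was counted at 141 to 792 per library, and the counting intervals of all 3 sensitive lines held 1. Those intervals were 0.833 to 1.16 in HeyA8, 0.807 to 1.19 in SK-OV-3 and 0.818 to 1.03 in OV2008. They overlapped the intervals of HeyA8-MDR (0.635 to 0.914), SK-OV-3-TR (0.632 to 0.937) and C13 (0.672 to 0.838).

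The paralog CCNE2 (cyclin E2) did not follow CCNE1. It was lower with QC in the 3 sensitive lines (0.591, 0.754 and 0.663 times vehicle in HeyA8, SK-OV-3 and OV2008) and in C13 (0.720), and higher in HeyA8-MDR (1.31) and SK-OV-3-TR (1.45). It was also the least counted member, at 41 to 605 counts, and 57.1% of its canonical transcript is shared with other genes, chiefly INTS8 on the opposite strand. The strand setting of the counting is not given in the sources used here, so reads of both genes cannot be told apart. The resistant minus sensitive difference was 0.71 ± 0.424 (unadjusted p = 0.119 in edgeR).

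CDK2, the kinase bound by both E cyclins, was 56.5 CPM with vehicle and 50.0 with QC in HeyA8, 41.4 and 49.9 in HeyA8-MDR, 30.9 and 23.2 in SK-OV-3, 51.1 and 76.2 in SK-OV-3-TR, 131 and 116 in OV2008, and 113 and 78.2 in C13. It was higher with QC in 2 resistant lines and lower in the other 4. Over lines the difference was -0.07 ± 0.149, with 2 standard errors reaching from -0.37 to 0.22.

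CDC25A, the phosphatase that activates CDK2, was lower with QC in 4 lines and higher in 2. The QC level was 7.79 CPM in HeyA8, 5.15 in HeyA8-MDR, 3.54 in SK-OV-3 and 68.8 in C13 (0.757, 0.509, 0.656 and 0.675 times vehicle), and 16.5 in SK-OV-3-TR and 73.5 in OV2008 (1.49 and 1.13 times). The difference over lines was -0.28 ± 0.188 (adjusted p = 0.502 in edgeR). Without SK-OV-3-TR, CDC25A and CDK4 joined SKP2 under an unadjusted 0.05.

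CCND1, which encodes cyclin D1, was 811 CPM with vehicle and 820 with QC in HeyA8, 591 and 558 in HeyA8-MDR, 306 and 217 in SK-OV-3, 232 and 187 in SK-OV-3-TR, 610 and 750 in OV2008, and 798 and 873 in C13. It was lower with QC in both SK-OV-3 lines (0.707 and 0.803 times) and higher in OV2008 and C13 (1.23 and 1.09). With library size in place of TMM scaling, HeyA8 turned from higher to lower. Over lines the difference was -0.08 ± 0.129.

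CCND3, which encodes cyclin D3, was higher with QC in 5 of 6 lines. The levels with vehicle and QC were 26.8 and 36.1 CPM in HeyA8, 18.6 and 21.3 in HeyA8-MDR, 23.8 and 27.4 in SK-OV-3, 24.0 and 30.3 in SK-OV-3-TR, 51.4 and 72.0 in OV2008, and 91.4 and 83.5 in C13. C13 was the exception at 0.914 times vehicle, and it also turned to higher with library size scaling. Over lines the difference was 0.25 ± 0.121, with an unadjusted p of 0.0581 in edgeR, and it passed an unadjusted 0.05 in DESeq2, under a stricter count filter and without C13.

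Of the partner kinases, CDK4 was lower with QC in 5 lines, at 0.677 (C13) to 0.897 (HeyA8-MDR) times vehicle, and higher in SK-OV-3-TR at 1.19 times. Its difference over lines was -0.23 ± 0.124 (unadjusted p = 0.0879 in edgeR), and 57.8% of its canonical transcript is shared with TSPAN31 on the opposite strand. CDK6 was higher with QC in the HeyA8 and OV2008 families, at 1.10 to 1.34 times, and lower in SK-OV-3 (0.809) and SK-OV-3-TR (0.912). The test of CDK6 among families gave an unadjusted p of 0.0844.

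CDKN1B, whose p27 protein SKP2 targets, was nearly level. QC was 0.959 times vehicle in HeyA8, 0.909 in its MDR derivative, 1.16 in SK-OV-3, 1.18 in SK-OV-3-TR, 0.993 in OV2008 and 0.881 in C13. Over lines the difference was 0.01 ± 0.119, with 2 standard errors reaching from -0.23 to 0.25. These are transcripts, and p27 protein was not measured in this table.

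Resistant lines were compared with their parents under vehicle, where the 3 pairs did not move together for most members. No member had an unadjusted p under 0.05 in edgeR or in DESeq2, against 3.71% of all genes in edgeR. No gene passed the adjusted threshold in edgeR, where 694 had an unadjusted p under 0.05, while DESeq2 called 50, no member among them. Differences of at least 2-fold were found for 3 of the 30 values. CCNE2 in HeyA8-MDR was 0.398 times HeyA8, CDK6 in SK-OV-3-TR 2.43 times SK-OV-3, and CDC25A in SK-OV-3-TR 2.05 times SK-OV-3. Among all genes 29.5%, 33.1% and 21.3% differed at least 2-fold in the HeyA8, SK-OV-3 and OV2008 pairs.

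Across the QC libraries the SK-OV-3 pair was further apart. SK-OV-3-TR was 4.58 times SK-OV-3 for CDC25A, 3.27 times for CDK2 (1.65 with vehicle) and 2.74 times for CDK6. Its CDKN1B was 0.643 times SK-OV-3 with vehicle and 0.656 times with QC. In the HeyA8 pair the CCNE2 difference shrank to 0.870 times and that of SKP2 widened from 0.810 to 0.460 times. The HeyA8 QC library that stood apart enters these 2 values, and its part in them was not tested. Of the 10 tested genes next to each member on its chromosome, between 2 (CCND1) and 7 (CCNE1 and CDK6) shared its direction between resistant and parent lines. The like share for neighbours of other genes was not computed, so nothing is read from these counts.

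**Figure D3:**
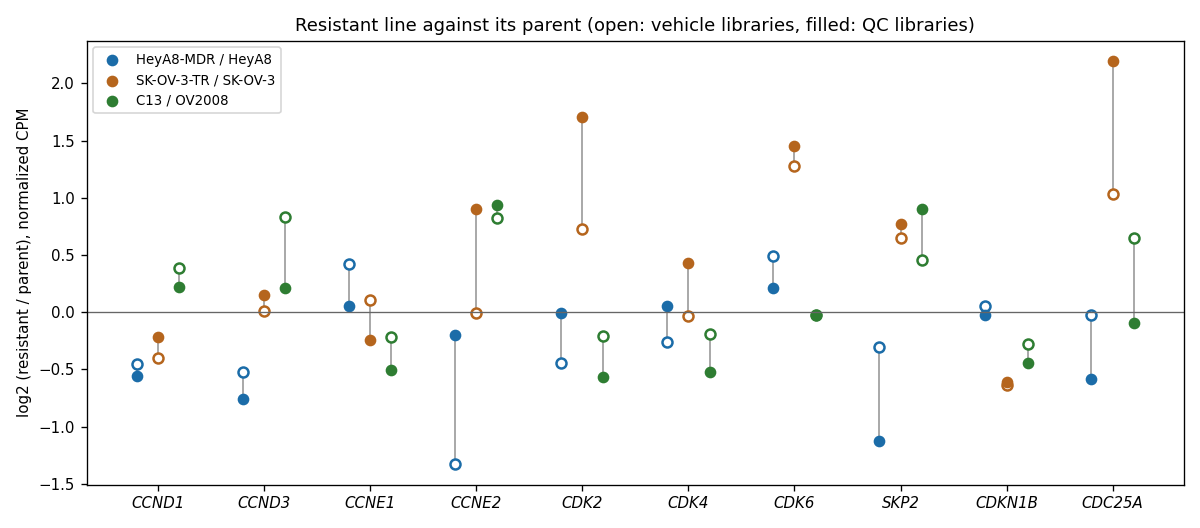
Log2 ratio of each resistant line to its parent (TMM-normalized CPM) for the 10 genes, with open circles for vehicle and filled circles for QC libraries, joined within a pair. The SK-OV-3 pair is highest for CDK6, CDC25A and CDK2, and the 3 pairs lie on both sides of 0 for CCND1, CCNE2 and SKP2.

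Genes around the members were read from 7 lists. All 70 of their genes were tested, and over the 6 lines 9 were higher and 2 lower with QC at an unadjusted p under 0.05 in edgeR, 15.7% in all beside 15.2% of all genes, with 0 at an adjusted 0.05. The CDK inhibitors had 3 of 6 higher and none lower, with a median of 0.38 (log2) beside 0.00 over all genes. CDKN1A, which encodes p21, was 0.91 ± 0.273 (unadjusted p = 0.00595), from 68.8 to 339 CPM in OV2008, 125 to 404 in C13, 461 to 768 in HeyA8, 543 to 580 in HeyA8-MDR, 21.1 to 36.7 in SK-OV-3 and 35.3 to 31.8 in SK-OV-3-TR. CDKN2B (p15) was 1.06 ± 0.346, a value that came from OV2008 (1.99 times) and C13 (2.23 times) only, because all 8 libraries of the other families had 0 counts. CDKN2D (p19) was 0.51 ± 0.217. CDKN2A (p16) had between 116 and 165 CPM in OV2008 and C13, 0 counts in 7 of the other 8 libraries and 6 counts in SK-OV-3-TR with QC.

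Among the 14 ubiquitin ligase partners, 2 were higher and 1 was lower (FBXO31, -0.27), beside 15.2% of all genes, and the median was 0.14. CKS1B, the cofactor SKP2 needs to bind p27, was 0.51 ± 0.165 (unadjusted p = 0.00883 in edgeR) and higher in 5 lines, at 1.53, 1.65, 2.12, 1.63 and 1.24 times in HeyA8, HeyA8-MDR, SK-OV-3, SK-OV-3-TR and OV2008, and 0.782 times in C13. SKP2 and CKS1B thus went opposite ways in HeyA8, HeyA8-MDR and OV2008. FBXW7, the F-box protein that targets cyclin E, was 0.70 ± 0.203 (unadjusted p = 0.00488) and higher in 5 lines, most in HeyA8 at 3.41 times, with SK-OV-3 at 0.967. HeyA8 went from 27.7 to 94.6 CPM there, towards and past the 73.9 CPM of HeyA8-MDR with vehicle, and the part of that library in the value was not tested. The scaffolds SKP1 (0.17 ± 0.152) and CUL1 (0.07 ± 0.118) did not pass an unadjusted 0.05.

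**Figure D4:**
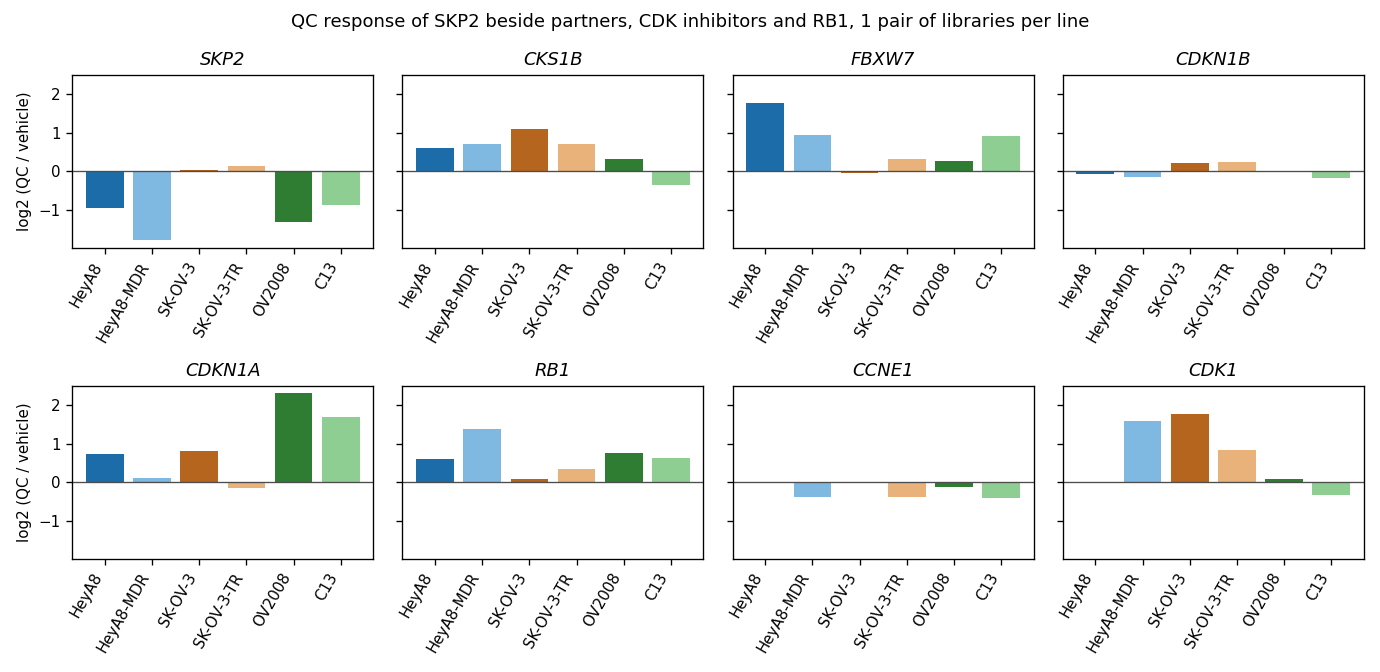
Log2 ratio of QC to vehicle (TMM-normalized CPM) in each of the 6 lines for SKP2, its cofactor CKS1B, the F-box gene FBXW7, the CDK inhibitor genes CDKN1B and CDKN1A, RB1, CCNE1 and CDK1. Each bar is 1 pair of libraries. SKP2 is below 0 in 4 lines, RB1 is above 0 in all 6, and CDK1 is highest in SK-OV-3 and HeyA8-MDR.

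In the RB and E2F list 2 of 13 were higher and 1 lower (E2F6, -0.43), beside 15.2% of all genes, with a median of -0.04. RB1, the target of the G1 kinases, was 0.63 ± 0.152 (unadjusted p = 0.00131, adjusted p = 0.151 in edgeR) and higher in 6 of 6 lines, at 1.51, 2.59, 1.07, 1.27, 1.67 and 1.55 times in HeyA8, HeyA8-MDR, SK-OV-3, SK-OV-3-TR, OV2008 and C13, beside 4.13% of genes higher in every line. E2F7, a repressor of E2F targets, was 0.27 ± 0.105. The E2F target genes themselves had none of 11 under an unadjusted 0.05, and MCM6 (-0.32 ± 0.185) and MCM5 (-0.25 ± 0.213) had the smallest p among them.

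The other cyclins and CDKs had 2 of 11 higher and none lower, where 15.2% of all genes had an unadjusted p under 0.05 in edgeR. Of this list 10 of 11 were above 0, with a median of 0.27 beside 0.00 over all genes. CDK1, the kinase of mitosis, was 0.64 ± 0.256 (unadjusted p = 0.0276 in edgeR). It was 3.38 times vehicle in SK-OV-3, 1.78 in SK-OV-3-TR, 3.004 in HeyA8-MDR, 1.07 in OV2008, 0.991 in HeyA8 and 0.794 in C13. The mitotic cyclin CCNB1 was 2.94 times in SK-OV-3 and 1.75 times in SK-OV-3-TR, and 0.607 times in C13, so the lines differed in direction. CCNA1 (0.49 ± 0.197) had at most 0.08 CPM in OV2008 and C13.

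The checkpoint genes (8) and the genes upstream of cyclin D and p27 (7) had none under an unadjusted 0.05 over lines. WEE1 (0.17 ± 0.122) and CHEK2 (-0.23 ± 0.209) had the smallest p of the former, and MYC (-0.26 ± 0.129, unadjusted p = 0.0659) and FOXO3 (0.22 ± 0.129) of the latter, all in edgeR. Among families with vehicle, 8 of the 11 E2F target genes passed an adjusted 0.05, beside 23.1% of genes.

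The genes whose levels were most like those of the members over the 12 libraries were found by Pearson's r of log2 CPM, given as a description since the libraries of a line and of a family are not independent. Among those most like SKP2 were NXT1 (r = 0.975) and FOXRED2 (0.971). CDC25A was most like the replication gene MCM10 (0.985), RASSF5 (0.984) and SH3BP1 (0.983). CCNE1 was most like NHERF1 (0.974), MRPL17 (0.974) and SERPINF1 (0.972), and CDK2 like GLA (0.977), PRMT1 (0.975) and the clamp loader subunit RFC4 (0.969). Taken over the differences between QC and vehicle in each line instead, r for these named genes ranged from 0.297 (NHERF1 with CCNE1) to 0.962 (FOXRED2 with SKP2).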

How the data were processed

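The deposited table holds raw read counts per gene, as the authors made them with the TruSeq RNA kit and HTSeq. The paper's methods name TopHat and hg19, whereas the submitters' processing notes name STAR 2.7.3a, HTSeq 0.6.1p1 and GRCh38.p13, and which made this table was not settled. Symbols were paired by Ensembl ID for 58623 of 60669 IDs, and the 2046 unpaired IDs held 0.132% of counts.

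Counts were scaled by TMM and tested with edgeR 4.0.16 in R 4.3.3 (quasi-likelihood, filterByExpr defaults, Benjamini-Hochberg adjustment) with a term for each line. The line term pairs QC with vehicle, since both libraries come from 1 line, and their deviations from group means correlated at r = 0.893 to 0.929. Log2 CPM used a prior count of 2. Standard errors are the log2 change over the root of F. DESeq2 1.42.0, other scalings and filters, leaving out lines, and fits without the line term were alternatives, and scripts were tested on simulated data. Members and lists were chosen with earlier results of these data known. Named list genes are the 2 with the smallest p per list, and others (CDKN2A, CDKN2D, CCNB1, CCND2, SKP1, CUL1, FBXO31, E2F6) were named after their values were seen. For each member the 3 genes with the highest r were taken as most alike, and a gene that this rule selects is not reported here. Each line gave 1 library per treatment, so p-values measure spread between lines, and a parent and its derivative entered as separate lines although they are related. In the tests by or among families that spread is between a parent and its derivative. Counting intervals, given for single lines, cover counting error only, whereas intervals of 2 standard errors use the spread of the edgeR fit.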

Additional observations from a re-analysis of the deposited data

How the results depend on the processing

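The number of members with an unadjusted p under 0.05 moved as follows. In the sensitive lines it was 2 with library size in place of TMM (CCND3, SKP2) and 2 when each library had to hold at least 10 counts (CCNE2, SKP2). Over 6 lines it was 2 with that filter and 2 with DESeq2 (CCND3, SKP2 in both), and the adjusted count was 1 with no filter on low counts and 1 with DESeq2, SKP2 each time. For the QC effect among families it was 3 with library size and with DESeq2 and 2 under both of the other filters, with an adjusted count of 1 with no filter and with DESeq2. Among families with vehicle DESeq2 gave 8 adjusted calls, where it called 6954 of all genes, against 4321 in edgeR. Of all genes DESeq2 had 2901 under an unadjusted 0.05 and 518 under an adjusted 0.05 over 6 lines. For the QC effect among families it had 2757 and 826. Totals under the other scalings and filters are not given here.

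Without the replicate block (the line or family term that pairs the libraries), 0 members were under 0.05 in the sensitive lines, the resistant lines and over 6 lines. The sign turned for CCND1 (0.0487) and CDC25A (0.0735) in sensitive lines, CCNE2 (-0.23) and CDK2 (-0.00868) in resistant lines, SKP2 in resistant minus sensitive (0.33), CCND1 over 6 lines (0.0237), and CCNE1 (-0.00405), CCNE2 (0.25) and CDK2 (-0.0941) in resistant against parent. The cause was not tested. Of 800 log2 changes under alternatives 42 turned sign. The 800 include the values of the tests among families, which are ranges between families and could not turn sign. The share among the values that could turn is therefore higher.

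Leaving out each line in turn gave 0 to 1 members under an unadjusted 0.05 in sensitive lines, 0 to 2 in resistant lines (CDC25A joined without SK-OV-3-TR), 0 to 1 for the difference (CDK2 without C13), 1 to 3 over 6 lines, 4 to 8 among families with vehicle (1 to 5 adjusted; 1 without C13) and 1 to 2 for the QC effect among families (0 to 1 adjusted). Changes whose sign turned ranged, in sensitive lines, from -0.0138 to 0.336 for CDK6, -0.24 to 0.14 for CCND1 and -0.0487 to 0.103 for CDKN1B. In resistant lines they ranged from -0.0626 to 0.450 for CCNE2, -0.143 to 0.0384 for CDKN1B, -0.213 to 0.0402 for CCND1, -0.12 to 0.41 for CDK2, -0.344 to 0.0344 for CDK4 and -0.00983 to 0.23 for CDK6. For the difference they ranged from -0.24 to 0.15 for CCND1, -0.24 to 0.11 for CDK6, -0.50 to 0.39 for SKP2, -0.47 to 0.24 for CDC25A, -0.179 to 0.0213 for CDKN1B and -0.0275 to 0.351 for CDK4. Over 6 lines they ranged from -0.15 to 0.00287 for CCND1, -0.0360 to 0.0366 for CDKN1B and -0.21 to 0.00496 for CDK2. In resistant against parent, leaving out a family, they ranged from -0.0598 to 0.293 for CCNE1, -0.65 to 0.41 for CCNE2, -0.32 to 0.26 for CDK2 and -0.22 to 0.42 for CCND3. Library size shifted the median log2 ratio of a line by up to 0.155 and turned the sign of 3 of 60 values (CCND1 in HeyA8, CCND3 in C13, CDKN1B in OV2008).

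With 1 library per line and treatment, spread within a line is unknown. SKP2, CCNE2 and CDC25A had under 100 counts in some libraries, where counting error is widest.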
